A study of Harpegnathos saltator with 27 samples.

Results

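The 150 most abundant brain-restricted genes of the ant Harpegnathos saltator were followed across 27 RNA sequencing libraries. They were chosen from 20659 gene identifiers by their levels in CPM (counts divided by a library's total gene count and multiplied by 1000000), each averaged over the 9 libraries of a tissue. A gene qualified when its brain mean plus 0.5 CPM was at least 8 times its mean plus 0.5 CPM in fat body and in ovary. Of the 1064 genes that qualified, the 150 with the highest brain means were taken. Brain restriction and abundance are therefore how the genes were chosen and are given below as a description, without a test.

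The libraries came from adult workers injected in the abdomen with 500 ng of 20-hydroxyecdysone (20E), with 500 ng of a juvenile hormone analog (JHA, given as methoprene in the series' design), or with about 1 µL of 10% ethanol in a balanced salt solution (EtOH). All animals were thus injected, and no uninjected group was analysed here. After 12 hours the brain without its visual part, the ovary and the fat body of the abdomen were sampled. The design gives 3 individuals, read here as 3 per treatment, and there were 9 groups of 3 libraries. The labels give the ants' caste as worker and state no age.

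In insects the brain's neurons and glia use many genes that other organs hardly use, among them genes for transmitter release, ion channels, neuropeptides and transport across the barrier around the brain. 20E is the active form of the moulting hormone and acts through a nuclear receptor. Juvenile hormone acts through another intracellular receptor, and in ants both hormones are linked to reproduction and to caste-related behaviour. The fat body is the main store and secretory organ of the abdomen, and the ovary holds the germ line with its supporting cells. The count table pairs no identifier with a name, and 0 of the 20659 identifiers were found in the RefSeq table of 14329 genes of this species. No function is therefore stated for any gene, no sequence is shown, and the tissue labels were not checked against marker genes.

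Gene counts per library ran from 8.74 to 13.4 M (M, 1000000) in brain, from 13.1 to 21.6 M in fat body and from 9.74 to 17.4 M in ovary. Some libraries stood apart from the rest of their tissue. In brain these were JHA replicate 1 and EtOH replicate 3, in ovary 20E replicate 3 and JHA replicate 1, and for the 150 genes in fat body EtOH replicate 3. Results that rest on them are given with and without them. The tissues are mixtures of cells, so a lower level can come from fewer cells of a type or from less RNA per cell, and these cannot be told apart.

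The 150 genes together took 9.92 to 11.2% of all gene counts in the brain libraries of 20E ants, 9.33 to 12.2% in those of JHA ants and 10.3 to 12.3% in those of EtOH ants. Their summed level averaged 104594 ± 6476 CPM with 20E, 112271 ± 16469 CPM with JHA and 111608 ± 10201 CPM with EtOH (SD, n = 3 each). The ranges of the 3 treatments overlapped. In fat body the same genes took 0.0765 to 0.157% of the counts and in ovary 0.196 to 0.383%. In every one of the 150, the lowest of the 9 brain libraries lay above the highest of the 18 libraries of fat body and ovary.

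**Figure D1:**
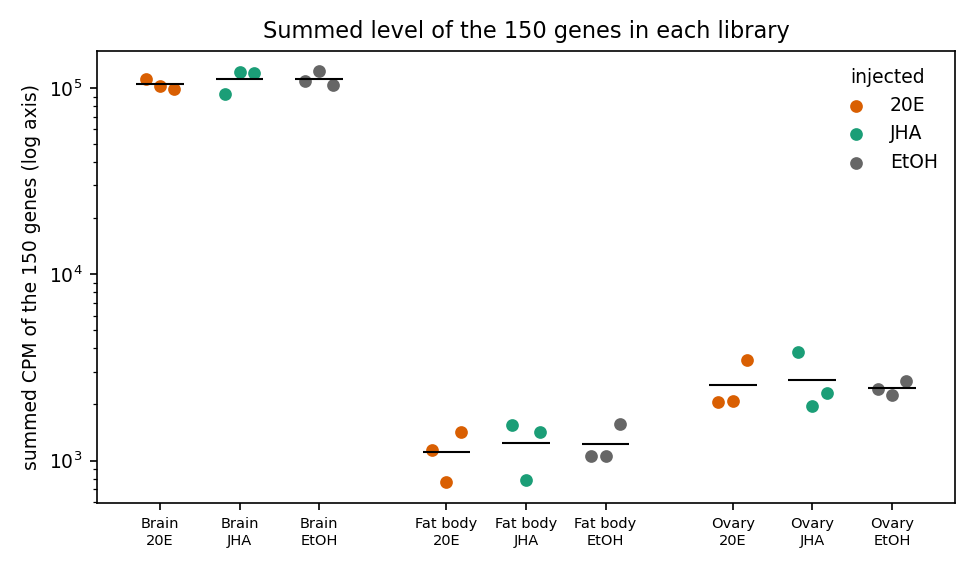
Summed CPM of the 150 genes in each library (log axis), by tissue and injection, with 3 points per group and a line at their mean. Brain libraries lie between 93269 and 122978 CPM, above fat body at 765 to 1566 CPM and ovary at 1959 to 3829 CPM, as the choice of the genes requires.

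Among the 150, brain means ran from 251 to 11386 CPM with a median of 436 CPM. There were 20 genes at 1000 CPM or more, 47 between 500 and 1000 CPM and 83 under 500 CPM. CPM is not scaled to transcript length, and lengths were not used here, so an order of genes by CPM is an order of read shares, not of transcript numbers. On that scale HSALG004673.2 stood alone at the top, with 10.4% of the summed level of the 150, and the 6 genes with the highest means together took 24.7%.

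HSALG004673.2 was at 10611, 9250 and 9478 CPM in the 20E libraries, at 11203, 13415 and 11836 CPM in the JHA libraries and at 11115, 12235 and 13335 CPM in the EtOH libraries. All 3 of its 20E values lay below its JHA and EtOH values. The difference of 20E from EtOH did not pass in the test described below (log2 fold change -0.31, SE 0.16, adjusted p = 0.52). The next genes by read share were HSALG009428.1 at a mean of 4487 CPM, HSALG011311.2 at 2979 CPM, HSALG008430.2 at 2819 CPM, HSALG003837.2 at 2813 CPM and HSALG006978.2 at 2511 CPM. Within brain, HSALG009428.1 kept between 4044 and 5584 CPM over the 9 libraries, while HSALG006978.2 ranged from 1039 to 3932 CPM.

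The ratio of brain to the higher of the other 2 tissues (each plus 0.5 CPM) had a median of 52.3 over the 150 genes. It was 100 or more in 54 genes, between 16 and 100 in 71 and under 16 in 25. The largest ratios were 991 in HSALG004673.2 and 680 in HSALG001442.2, which averaged 1713 CPM in brain, 2.02 CPM in fat body and 1.54 CPM in ovary. The smallest were 8.19 in HSALG020502.1 and 8.21 in HSALG004845.2. The first rests in part on ovary JHA replicate 1, a library that stood apart. There HSALG020502.1 was at 498 CPM, against 20.6 to 108 CPM in the other ovary libraries. Just below the floor of 8 stood HSALG003182.2 at 7.94 and HSALG005870.2 at 7.74, which were not taken. At the lower edge of abundance, HSALG008108.2 and HSALG005024.1 were taken at 251.1 and 250.6 CPM, while HSALG001276.2 and HSALG021119.1, at 249.98 and 248.7 CPM, were not.

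Outside brain most of these genes had the higher level in ovary. Of the 150, 114 had the higher mean in ovary and 36 in fat body. Their mean levels had a median of 2.07 CPM in fat body and 8.03 CPM in ovary. Means under 1 CPM were found for 49 genes in fat body and 21 in ovary, with 16 genes under 1 CPM in both. Means of 10 CPM or more were found for 29 genes in fat body and 63 in ovary, with 19 in both. Brain restriction in these 150 thus covers genes close to absent elsewhere and genes with a lower but clear level in ovary. An example of the latter is HSALG020502.1, at a mean of 903 CPM in brain and 110 CPM in ovary. Its ovary mean includes 498 CPM in JHA replicate 1, against 20.6 to 108 CPM in the other ovary libraries.

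The spread within treatments was set beside that of other abundant brain genes. The within-treatment standard deviation of log2(CPM + 0.5) over the 9 brain libraries had a median of 0.34 among the 150 and of 0.19 among the 655 other genes with a brain mean at least as high as that of the last of the 150. It ranged from 0.05 to 1.93 among the 150. Without JHA replicate 1 and EtOH replicate 3, the medians were 0.19 and 0.10. By treatment, the median standard deviation of the 150 was 0.18 with 20E, 0.31 with JHA and 0.35 with EtOH, against 0.10, 0.19 and 0.22 among the 655.

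The steadiest genes were HSALG007459.2, between 1798 and 2250 CPM over the 9 brain libraries, and HSALG009314.2, between 358 and 418 CPM. The most variable were HSALG012315.1 and HSALG012730.2. HSALG012315.1 was at 145, 1143 and 1268 CPM with 20E, at 1209, 315 and 32.1 CPM with JHA and at 892, 444 and 1810 CPM with EtOH. HSALG012730.2 was at 33.7, 436 and 646 CPM with 20E, at 706, 164 and 30.8 CPM with JHA and at 391, 221 and 789 CPM with EtOH. Both genes were lowest in JHA replicate 3 and 20E replicate 1 and highest in EtOH replicate 3, and the 3 treatments overlapped in both genes. The lowest count of any of the 150 genes in any brain library was 269 reads, so counting error is small beside such differences.

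JHA replicate 1 and EtOH replicate 3 were low in most of the 150 genes. In JHA replicate 1, 117 of the 150 genes lay below their own mean over the 9 libraries, and in EtOH replicate 3, 103 did. The median deviation was -0.26 and -0.31 on the log2 scale in these libraries, between -0.11 and 0.24 in the other 7, and -0.01 and -0.05 in the same 2 libraries for the 655 other abundant genes. In 56 of the 150 genes (37.3%) these 2 libraries held the 2 lowest values, and in 12 (8.0%) the 2 highest. Among the 655 the shares were 31.9% and 25.8%, and among all 18460 genes with a count in brain 13.3% and 20.0%. In the same 2 libraries 48.5 and 49.98% of the table's reads matched no feature counted by the program HTSeq, against 52.2 to 54.2% in the other 7. What part this has in their lower levels was not tested.

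**Figure D2:**
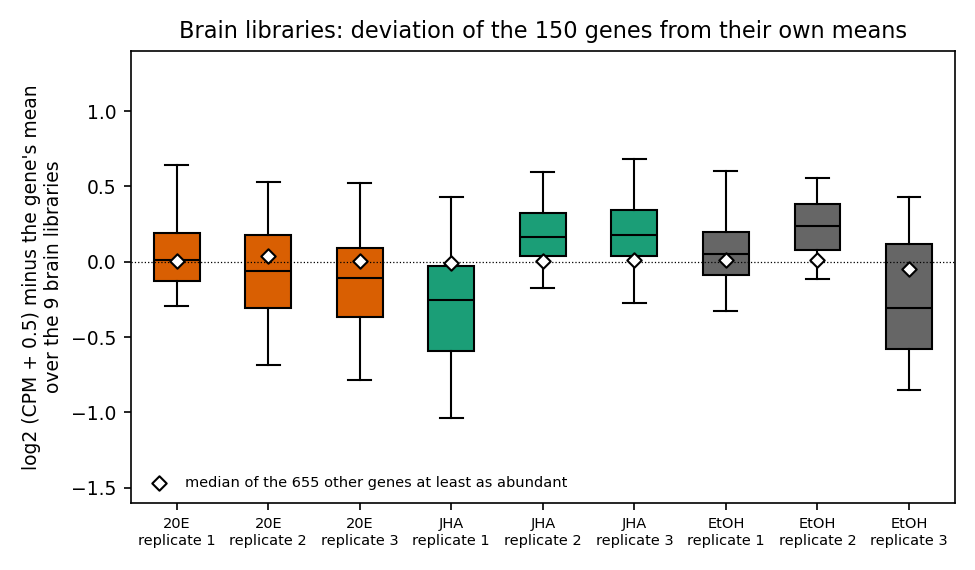
Deviation of each of the 150 genes from its own mean over the 9 brain libraries, as log2(CPM + 0.5). Boxes span the quartiles with the median as a line, whiskers reach the percentiles 5 and 95, and diamonds give the median of the 655 other genes at least as abundant. JHA replicate 1 and EtOH replicate 3 lie lowest, with medians of -0.26 and -0.31, while the diamonds stay between -0.05 and 0.04.

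The first principal component of the 150 genes over the 9 brain libraries held 48.4% of their variance. It placed JHA replicate 1 at 5.25, EtOH replicate 3 at 5.03 and 20E replicate 3 at 3.32, with JHA replicate 3 at the other end at -5.86. The largest weights on this component were those of the 2 most variable genes, HSALG012315.1 (5.13) and HSALG012730.2 (4.91). The next in size was -1.94 in HSALG023903.1, and 29 of the 150 genes had a positive weight. The first component thus leans heavily on these 2 genes. The second component held 29.0%. It placed 20E replicates 2 and 3 at 4.94 and 4.95, 20E replicate 1 at 0.96, and all JHA and EtOH libraries below 0, between -3.38 and -0.71. The 3 20E libraries were thus highest on the second component, with replicate 1 close to the other treatments. Its largest weights were those of HSALG024732.1 (3.94), HSALG010332.2 (3.39), HSALG024997.1 (3.30) and HSALG007798.2 (-3.16). Of these, HSALG024997.1 is one of the 150 only through its 20E values, as given below. The place of the 20E libraries on this component is therefore a description, not a test.

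The first question on the hormones was whether 20E changed these genes in brain. Counts were tested with edgeR's quasi-likelihood test on all 9 libraries of a tissue and all genes that passed a filter on low counts, and calls were made at an adjusted p below 0.05 (Benjamini-Hochberg). The averages that chose the genes pool all treatments, so a gene that is high in 1 treatment can owe its place to that treatment. Of the 150, 3 had a brain mean at or above that of the last gene taken (250.6 CPM) in 1 treatment only, namely HSALG024997.1 and HSALG008324.2 with 20E and HSALG023940.1 with JHA (the last 2 named after their values were seen). All 150 passed the filter in brain. With 20E, 3 of the 150 were called against EtOH (2.00%), 2 higher and 1 lower. Among the higher ones is HSALG024997.1, which is one of the 150 only through its 20E values. Of all 12379 genes tested 1.87% were called, 1.35% higher and 0.517% lower. The share called among the 150 was near that of all genes in this fit, but not in every other. With limma voom and library weights 42 of the 150 (28%) were called, against 12.8% of all genes tested, and with DESeq2 9 (6%), against 4.52%. When the same rule took its 150 genes from JHA libraries alone, which this contrast does not use, 139 of the genes were the same and 3 of the 150 were called (2.00%). HSALG010332.2 and HSALG007492.2 were among these 3, and HSALG024997.1 was not among the genes taken.

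HSALG024997.1 was at 586, 538 and 431 CPM with 20E, at 184, 157 and 136 CPM with JHA, and at 147, 108 and 88.7 CPM with EtOH. Each 20E value was above every other brain value of the gene. Its means were 518 ± 79.4 CPM with 20E and 114 ± 29.5 CPM with EtOH (SD, n = 3 each), 4.55 times as high by the fit. The gene ranked 141 among the 150 by its mean over all treatments. Its JHA and EtOH means, 159 and 114 CPM, lie below the 250.6 CPM of the last gene taken, so it is one of the 150 only through its 20E values. Its difference is therefore a description of how it was chosen, and no p is given for it.

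HSALG010332.2 was at 688, 1070 and 1206 CPM with 20E, at 225, 321 and 287 CPM with JHA, and at 267, 327 and 317 CPM with EtOH. The 20E values again lay above all others, with replicate 1 the lowest of the 3. Its means were 988 ± 268 CPM with 20E and 304 ± 32.1 CPM with EtOH (SD, n = 3 each), a 3.27-fold rise (log2 fold change 1.71, SE 0.23, adjusted p = 0.0082 with edgeR). The call held in 15 of 16 and was lost without EtOH replicate 1 (adjusted p = 0.0598 with edgeR). Outside brain HSALG010332.2 was close to absent, with means of 1.26 CPM in fat body and 0.256 CPM in ovary.

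HSALG007492.2 was the gene that fell. It was at 538, 318 and 405 CPM with 20E, at 1043, 927 and 735 CPM with JHA, and at 718, 846 and 988 CPM with EtOH. All 3 20E values lay below the other 6. The mean was 420 ± 111 CPM with 20E and 851 ± 135 CPM with EtOH (SD, n = 3 each), 2.01-fold lower with 20E (SE 0.21 on the log2 scale, adjusted p = 0.0497 with edgeR). This call was lost in 10 of 16 alternative fits, in which adjusted p reached 0.206. Among them were the fits without any 1 of the 3 EtOH libraries, of 20E replicates 2 and 3 or of JHA replicates 2 and 3.

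**Figure D3:**
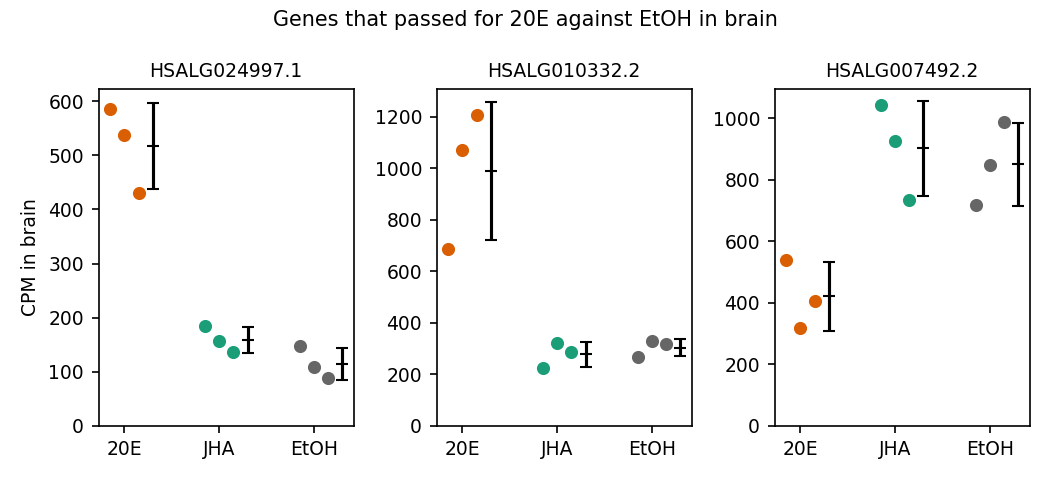
CPM in brain of the 3 genes that were called for 20E against EtOH, with 1 point per library and the mean ± SD beside the 3 points of each group. The 20E values of HSALG024997.1 (431 to 586 CPM) and HSALG010332.2 (688 to 1206 CPM) lie above all JHA and EtOH values, and those of HSALG007492.2 (318 to 538 CPM) lie below.

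Beyond the calls, the log2 fold change with 20E was below 0 in 98 of the 150 genes and above 0 in 52, with a median of -0.13, against -0.02 over all genes tested and 0.01 over the 655 other abundant genes. In 39 genes (26%) the 3 values of 20E did not overlap the 3 of EtOH. Such a separation was found in 16.6% of all genes tested and in 20.2% of the 655. Unadjusted p was below 0.05 in 27 of the 150 (18%), against 11.6% of all genes tested. The median was 0.03 without EtOH replicate 2 and -0.22 without EtOH replicate 3, so its sign rests on EtOH replicate 2. Leaving out 1 library at a time gave from 1 call, without EtOH replicate 1, to 12 calls (4 higher, 8 lower), without 20E replicate 1. The share of all genes called was 0.425% in the first of these fits and 3.39% in the second, against 0.667 and 8% of the 150. There were 2 calls (1.33%) without EtOH replicate 2, without 20E replicate 2 or 3, or without JHA replicate 2 or 3. Of all genes tested these fits called 0.406 to 1.05%. Without both JHA replicate 1 and EtOH replicate 3 there were 11 calls (7.33%), 2 higher and 9 lower, against 3.19% of all genes tested.

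With JHA in brain the same test called 0 of the 150 genes, and 0 of the 12379 genes tested (0%). Unadjusted p was below 0.05 in 3 of the 150 (2.00%), against 3.22% of all genes tested, and both DESeq2 and limma voom with library weights also called 0 of the 150. Over all 12379 genes these called 30 and 33. The median log2 fold change was -0.01, with 72 genes above 0 and 78 below. With 1 library left out it lay between -0.11, without EtOH replicate 3, and 0.13, without JHA replicate 1 or EtOH replicate 2. Of the 150, 8 (5.33%) did not overlap between JHA and EtOH, against 6.47% of all genes tested. The smallest p among lower genes was that of HSALG020503.1, at 337, 564 and 514 CPM with JHA and 643, 843 and 727 CPM with EtOH, with no overlap (log2 fold change -0.64, SE 0.22, adjusted p = 0.9997 with edgeR). Among higher genes it was that of HSALG001182.2, at 237, 408 and 432 CPM with JHA and 168, 280 and 184 CPM with EtOH, where the groups overlapped (log2 fold change 0.77, SE 0.32, adjusted p = 0.9997 with edgeR).

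Set against 20E in brain, JHA differed in 3 of the 150 genes (2.00%), 1 higher and 2 lower, against 2.19% of all genes tested, 0.67% higher and 1.52% lower. These were the same 3 genes as for 20E against EtOH, and both comparisons use the same 3 20E libraries. HSALG010332.2 was lower with JHA than with 20E (log2 fold change -1.83, SE 0.23, adjusted p = 0.00567 with edgeR), a call that held in all 16 alternative fits. HSALG024997.1 was also lower with JHA (log2 fold change -1.72), which is again a description, since it was chosen through its 20E values. When the rule took its 150 genes from EtOH libraries alone, 3 were called (2.00%), among them HSALG010332.2 and HSALG007492.2. HSALG007492.2 was 2.12-fold higher with JHA (log2 fold change 1.08, SE 0.21, adjusted p = 0.0331 with edgeR), a call lost in 10 of 16 alternative fits, with adjusted p up to 0.152. Among them were the fits without any 1 of the 3 JHA libraries, of 20E replicates 2 and 3 or of EtOH replicates 1 and 2. The median log2 fold change of the 150 was 0.09, with 95 genes above 0, against 0.01 over all genes tested. It was 0.26 without JHA replicate 1 and also without both JHA replicate 1 and EtOH replicate 3, 0.02 without JHA replicate 2 and 0.03 without JHA replicate 3. In 37 of the 150 (24.7%) JHA did not overlap 20E, against 18.1% of all genes tested, and in 26 (17.3%) unadjusted p was below 0.05, against 12.2%. Without 20E replicate 1 there were 13 calls (8.67%, against 3.88% of all genes tested), and without both JHA replicate 1 and EtOH replicate 3 there were 10 (6.67%, against 3.37%). Without 1 other library there were 2 or 3 (1.33 or 2.00%, against 0.589 to 2.49% of all genes tested).

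In fat body the mean levels of the 150 genes ran from 0.218 to 102 CPM, with 49 under 1 CPM, and 125 of them passed the filter on low counts. A single library differed from the other 8 in most of the 150 genes. In EtOH replicate 3, 96 of the 150 genes (64.0%) had their highest value of the 9 fat body libraries, against 10.7% of the 655 other abundant genes and 18.1% of all 16438 genes with a count in fat body. HSALG004673.2 was at 7.48, 6.98 and 8.0 CPM with 20E, at 9.93, 7.52 and 7.39 CPM with JHA, and at 7.23, 7.91 and 36.4 CPM with EtOH. The value of 36.4 CPM rests on 477 reads, and the other 8 values span 6.98 to 9.93 CPM.

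Set against each gene's brain mean, the 150 genes had a median level of 0.634% in fat body EtOH replicate 3 and of 0.21 to 0.361% in the other 8 fat body libraries. The amount by which EtOH replicate 3 exceeded the median of the other 8 was above 0 in 139 of the 150 genes. It came to a median of 0.319% of the brain level, with quartiles of 0.216 and 0.525%. For HSALG004673.2 the level, a different measure from this excess, was 0.32% there and 0.0613 to 0.0872% in the other 8. Only 7 of the 150 genes were under 1 CPM in that library, while 47 to 72 were in each of the others. The 655 other abundant genes, of which 653 passed the filter on low counts in fat body, stood at a median of -0.02 on the log2 scale against the other 8 libraries, and the 150 genes at 1.00. The source of these reads was not tested.

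**Figure D4:**
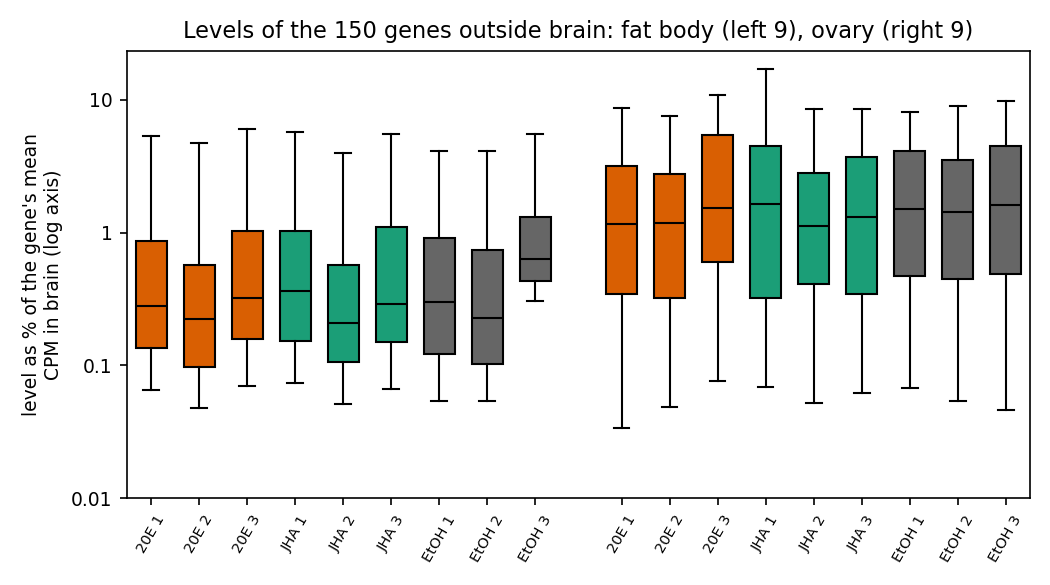
Level of each of the 150 genes in the libraries of fat body (left) and ovary (right), in percent of its mean CPM in brain, on a log axis. Boxes span the quartiles with the median as a line, and whiskers reach the percentiles 5 and 95. Fat body EtOH replicate 3, with a median of 0.634%, lies above the other fat body libraries at 0.21 to 0.361%.

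Against EtOH in fat body, 20E gave 1 call among the 125 genes tested (0.800%), which was lower, against 1.01% of all 9870 genes tested, 0.598% higher and 0.415% lower. HSALG012317.2 was at 3.53, 4.26 and 4.86 CPM with 20E and at 10.6, 7.14 and 9.62 CPM with EtOH, with no overlap (log2 fold change -1.18, SE 0.22, adjusted p = 0.0483 with edgeR). The call was lost in 12 of 15 alternative fits, with adjusted p up to 0.138. Among them were the fits without any 1 of the 3 20E libraries, of the 3 EtOH libraries or of JHA replicates 2 and 3. The smallest p among higher genes was that of HSALG006360.1, at 9.81, 16.5 and 51.7 CPM with 20E and at 2.79, 2.33 and 6.65 CPM with EtOH, again with no overlap (log2 fold change 2.66, SE 0.63, adjusted p = 0.0921 with edgeR).

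JHA gave 2 calls among the 125 (1.60%), both lower, against 1.12% of all genes tested, 0.476% higher and 0.648% lower. HSALG006316.2 was at 26.7, 20.6 and 28.3 CPM with JHA and at 42.0, 40.2 and 52.9 CPM with EtOH (log2 fold change -0.92, SE 0.16, adjusted p = 0.0372 with edgeR). HSALG003712.2, named after its values were seen, was at 1.12, 1.02 and 1.39 CPM with JHA and at 3.17, 3.32 and 5.12 CPM with EtOH (log2 fold change -1.78, SE 0.33, adjusted p = 0.0451 with edgeR). Neither gene overlapped between the groups, and 6 and 9 of 15 alternative fits did not give these calls. Both calls were lost without any 1 of the 3 JHA or the 3 EtOH libraries, and that of HSALG003712.2 also without 20E replicate 1 or 3, with adjusted p up to 0.124 and 0.14. Without EtOH replicate 3 there were 0 calls for either hormone by edgeR, against 0.258 (20E) and 0.476% (JHA) of all genes tested, with 14 (20E) and 7 (JHA) genes at an unadjusted p under 0.05. HSALG004601.2 came closest among higher genes, at 21.7, 17.0 and 24.8 CPM with JHA and at 8.12, 8.48 and 10.8 CPM with EtOH (log2 fold change 1.12, SE 0.24, adjusted p = 0.063 with edgeR), and it passed in 6 of 15 alternative fits.

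The medians of the 125 genes in fat body changed sign without 1 library. With 20E the median log2 fold change was -0.42, with 92 genes below 0, and with JHA it was -0.40, with 90 below 0, against -0.01 and -0.02 over all genes tested. Both comparisons use the same 3 EtOH libraries. Without EtOH replicate 3 the medians were 0.03 with 20E and 0.16 with JHA. Values did not overlap those of EtOH in 14 of the 125 with 20E (11.2%) and in 13 with JHA (10.4%), against 16.9 and 19.5% of all genes tested. Unadjusted p was below 0.05 in 20 of the 125 with 20E (16%) and 11 with JHA (8.80%), against 14.2 and 16.4% of all genes tested.

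**Figure D5:**
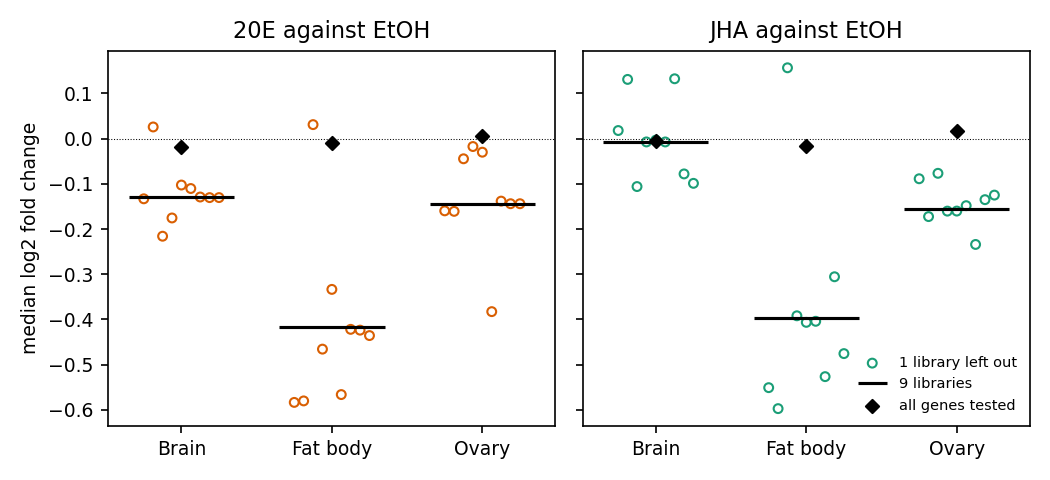
Median log2 fold change of those of the 150 genes that were tested, for 20E and JHA against EtOH in each tissue. The black line is the fit of 9 libraries, open circles are the fits with 1 library left out, and diamonds are all genes tested. In fat body the lines are at -0.42 and -0.40, and the circles above 0, at 0.03 and 0.16, are the fits without EtOH replicate 3.

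In ovary 136 of the 150 genes passed the filter, and 0 were called with 20E or JHA, as for all 11418 genes tested (0%). Unadjusted p was below 0.05 in 9 of the 136 with 20E (6.62%) and 2 with JHA (1.47%), against 2.40 and 3.51% of all genes tested. Groups did not overlap in 14 of the 136 with 20E (10.3%) and 8 with JHA (5.88%), against 9.66 and 16.7% of all genes tested. For 20E DESeq2 called 2 of the 136 (1.47%), against 0.333% of all genes tested, and limma voom with library weights 11 (8.09%), against 2.69%. For JHA both called 0 of the 136, and 7 and 0 over all genes tested. The ovary libraries of 20E replicate 3 and JHA replicate 1 held the highest summed levels of the 150 genes, at 3448 and 3829 CPM, against 1959 to 2680 CPM in the other 7. In 29 of the 150 genes (19.3%) they held the 2 highest values of the 9. The share was 21.8% among the 655 other abundant genes and 13.4% among all genes with a count in ovary. Without these 2 libraries 9 of 137 genes were called for 20E (6.57%), all lower, against 3.24% of all genes tested, and 0 for JHA.

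With 20E in ovary the smallest p among higher genes was that of HSALG008430.2, also among the 6 genes with the highest brain means. It was at 70.2, 221 and 389 CPM with 20E, at 64.9, 16.6 and 29.5 CPM with JHA, and at 19.7, 6.90 and 28.2 CPM with EtOH. Every 20E value was above the EtOH values, and the 20E values spanned more than those of any other treatment (log2 fold change 3.58, SE 0.76, adjusted p = 0.625 with edgeR). It passed in 2 of 16 alternative fits. In brain the same gene was at 2801, 3594 and 3930 CPM with 20E and at 2809, 2556 and 2696 CPM with EtOH, and did not pass (log2 fold change 0.37, SE 0.16, adjusted p = 0.43 with edgeR). Among lower genes it was that of HSALG010794.2, at 34.5, 32.4 and 52.8 CPM with 20E and at 79.7, 93.4 and 84.8 CPM with EtOH, with no overlap (log2 fold change -1.15, SE 0.26, adjusted p = 0.694 with edgeR). It passed in 3 of 16 alternative fits.

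For JHA in ovary the smallest p among lower genes was that of HSALG001643.2, at 2.55, 3.38 and 3.70 CPM with JHA and at 7.45, 4.29 and 5.20 CPM with EtOH (log2 fold change -0.87, SE 0.31, adjusted p = 0.825 with edgeR). Among higher genes it was that of HSALG012317.2, at 18.3, 6.51 and 26.8 CPM with JHA and at 6.03, 6.13 and 8.82 CPM with EtOH, where the groups overlapped (log2 fold change 1.24, SE 0.51, adjusted p = 0.825 with edgeR). Neither passed in any of 16 alternative fits. The median log2 fold change of the 136 genes was -0.15 with 20E and -0.16 with JHA, against 0.01 and 0.02 over all genes tested. With 1 library left out it stayed below 0 in both comparisons, from -0.38 to -0.02 with 20E and from -0.23 to -0.08 with JHA. The 655 other abundant genes also leaned below 0, with medians of -0.04 with 20E and -0.08 with JHA. Of these 655, 387 lay below 0 with 20E and 395 with JHA, beside 81 and 85 of the 136. The sign was thus shared by other abundant brain genes, while the medians of the 136 lay further below 0. Whether the sets differ was not tested.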

How the data were processed

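The authors deposited whole-number read counts per gene, per the labels. The submitters' processing notes name Trimmomatic, STAR 2.5.3a and HTSeq. Build, annotation and strand setting are not stated in these sources, so overlapping and antisense genes may share reads and near-identical copies are uncertain. The 5 summary rows of HTSeq entered neither totals nor tests. Of the table's reads, 26.2 to 54.2% matched no counted feature, with the highest shares in brain. Reads with several alignments made up 6.58 to 18.5%.

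CPM in the text uses total gene counts. Each tissue had 1 edgeR 4.0.16 fit in R 4.3.3 over its 9 libraries (TMM, filterByExpr, robust glmQLFit, glmQLFTest, no replicate block), with p adjusted over all genes tested. Standard errors were taken from the F statistic. Scripts were tested on simulated counts. Alternatives were DESeq2 1.42.0, its size factors in edgeR, voom of limma 3.58.1 with library weights, no low-count filter, the replicate number as a block, the 2 compared groups alone, libraries left out, and genes chosen on the treatment a contrast does not use (added after the data were seen). No replicate pair agreed within sampling noise (lowest chi-square per degree of freedom 7.94). Which libraries came from the same ant is not stated, and p-values measure the spread between the libraries of a group.

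Genes and rules were chosen with earlier results of these data known. The text names the 6 genes with the highest brain means, the extremes of ratio and spread, the genes at both edges of the choice, up to 2 called genes per direction in each brain comparison (otherwise the smallest p), and the smallest p per direction in fat body and ovary.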

Additional observations from a re-analysis of the deposited data

Results flagged for a closer look

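HSALG004601.2 lay above EtOH with JHA in fat body and below it in ovary, with no overlap between the groups in either tissue. In fat body it was at 21.7, 17.0 and 24.8 CPM with JHA and at 8.12, 8.48 and 10.8 CPM with EtOH, a log2 fold change of 1.12. In ovary it was at 23.7, 31.6 and 38.7 CPM with JHA and at 39.1, 43.5 and 41.2 CPM with EtOH, a log2 fold change of -0.45. The highest JHA value there lay close to the lowest EtOH value, and the lowest was that of replicate 1, which stood apart. JHA and EtOH did not overlap in 19.5% of all genes tested in fat body and in 16.7% in ovary. The gene was called in neither tissue by the edgeR fit of 9 libraries. In fat body it passed in 6 of 15 alternative fits, 4 of them edgeR fits, namely those with no filter on low counts, with only the 2 groups compared, and without 20E replicate 2 or 3. The difference between the tissues was not tested.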

How the results depend on the processing

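Of the 7 counts of called genes, those for JHA in brain and in ovary were 0 in all alternatives. For 20E against EtOH in brain the 3 calls became 9 with DESeq2, 42 with limma voom with library weights and 11 without both JHA replicate 1 and EtOH replicate 3, and 1 to 12 with 1 library left out. The first 3 of these fits called 4.52, 12.8 and 3.19% of all genes, against 6, 28 and 7.33% of the 150. For JHA against 20E in brain the 3 calls became 8, 52 and 10 in the same order (5.33, 34.7 and 6.67% of the 150, against 4.82, 13.8 and 3.37% of all genes), and 2 to 13 with 1 library left out. For 20E in fat body the 1 call became 0 with DESeq2 size factors, limma voom, the replicate block or only the 2 groups compared. These fits called 0.892, 0.669, 0.527 and 0.345% of all genes. The call became 7 with DESeq2 (5.60%, against 5.31% of all genes) and 2 with no filter (1.33%, against 0.767%). With 1 library left out there were 0 or 1 calls, with 0.129 to 1.04% of all genes called. For JHA in fat body the 2 calls became 5 with DESeq2 (4.00%, against 6.32% of all genes) and 1 with the replicate block (0.800%, against 0.811%). They became 1 when the genes were chosen on 20E libraries alone (0.800%, against 1.12%). With 1 library left out there were 0 to 3 calls, with 0.0397 to 1.46% of all genes called. For 20E in ovary the 0 calls became 2 with DESeq2, 11 with limma voom and 9 without both 20E replicate 3 and JHA replicate 1, and stayed 0 with 1 library left out. Some of these fits also use fewer samples, and the cause of the shifts was not tested. With the replicate block 2 genes were called for 20E against EtOH and 2 for JHA against 20E in brain. Each was 1.33% of the 150, against 0.622 and 1.07% of all genes. The numbers were not taken to pair the samples: the correlation of deviations between same-numbered libraries ran from -0.45 to 0.25 in brain, from -0.21 to 0.45 in fat body and from -0.37 to 0.42 in ovary. Between libraries of different numbers it ran from -0.48 to 0.56, from -0.25 to 0.20 and from -0.42 to 0.49. The highest same-numbered value in fat body, 0.45, thus lay above all values of different numbers there. In fat body the 3 same-numbered pairs of 20E and JHA correlated at 0.13, 0.45 and 0.12, but those of either with EtOH were all below 0.

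Counting calls among genes chosen on the treatment that a contrast does not use was added after the data were seen, and moved no count but that of JHA in fat body by over 1.5 times. The choice of genes kept 135 of the 150 with TMM scaling, and 135, 139 and 139 when made on 20E, JHA or EtOH libraries alone. It kept 142 with medians, and 109 and 125 with floors of 4 and 16. With TMM scaling 828 genes qualified in place of 1064, and the lowest brain mean taken was 145.5 CPM in place of 250.6 CPM. Ratios between tissues therefore depend on the scaling, and those in the text use CPM without it. TMM scaling moved the mean summed brain level of each treatment by less than its SD. Low levels limit the fat body values most, where 7 to 72 of the 150 genes were under 1 CPM in a library.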

Other observations

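A few values lie outside the comparisons above and were picked after they were seen. In ovary JHA replicate 1, HSALG020502.1 was at 498 CPM and HSALG020503.1 at 238 CPM, against 20.6 to 108 CPM and 8.56 to 50.5 CPM in the other 8 ovary libraries. In the same library HSALG004673.2 was at 23.7 CPM, against 0.494 to 6.23 CPM in the other 8. HSALG006978.2 was at 43.5, 5.94 and 30.3 CPM in fat body with JHA and at 3.49, 1.91 and 10.3 CPM with EtOH, and did not pass (log2 fold change 2.25, SE 0.81, adjusted p = 0.219 with edgeR). With 20E, HSALG002304.2 and HSALG002308.2 lay above EtOH in brain without overlap (log2 fold changes 0.66 and 0.68) and below it in ovary without overlap (-0.81 and -0.54), and HSALG011812.1 lay above EtOH in brain (0.25) and below it in fat body (-0.86). None of these genes was called in these comparisons by the edgeR fits of 9 libraries, and in ovary HSALG002304.2 and HSALG002308.2 had adjusted p = 0.9998 with edgeR. HSALG002308.2 was low in ovary, at 1.73, 1.56 and 2.06 CPM with 20E and at 2.71, 2.07 and 2.76 CPM with EtOH. Values of 20E and EtOH did not overlap in 16.6% of all genes tested in brain, 9.66% in ovary and 16.9% in fat body. These differences between tissues were not tested.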
